A study of Mus musculus with 7 samples.

Results

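Integrins and the adaptor proteins that tie them to the actin cytoskeleton were followed in vascular fragments of the mouse brain, 4 hours after PDGF-CC had been injected into the cerebral ventricles. The rule for members used gene names and no measured values. They were the integrin alpha and beta subunit genes plus the talins, the kindlins (Fermt genes), Ilk, the parvins Parva and Parvb, vinculin (Vcl), paxillin (Pxn) and the focal adhesion kinase gene Ptk2. Of these, 34 genes had a probe set that carried their symbol alone, against 22180 such genes on the whole array: 17 alpha subunits, 8 beta subunits and 9 adaptors. Itgav had 2 such probe sets, and the brighter was used. Ilk was present only on 3 probe sets that also carry another gene's symbol, and Ilk, Ptk2 and Itga10 were not analysed here.

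The study compared 4 arrays of mice given PDGF-CC, a growth factor that signals through PDGFR-alpha, with 3 arrays of mice given phosphate-buffered saline (PBS), by intracerebroventricular (ICV) injection. All mice were females of the C57BL/6N strain (C57BL/6 in the sample labels), 12 weeks old, and no transgene is named in the labels. The labels do not say whether animals were pooled or whether an array stands for a single mouse, so p-values reflect only how far these samples spread, part of which may be technical. Values are log2 expression as the authors deposited it. All 15 endothelial markers checked (among them Pecam1, Cdh5 and Cldn5) lay above the brightness filter of 4.14 described with the methods. So did all 10 pericyte, all 10 smooth muscle and all 13 microglial markers. In such bulk RNA, fewer cells of a type and less RNA per cell cannot be told apart.

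Integrins are receptors made of an alpha and a beta subunit that hold cells to the extracellular matrix or to other cells. Talins and kindlins bind the tail of the beta subunit and switch the receptor to its active state, and vinculin, paxillin, the parvins and focal adhesion kinase build the plaque that links it to actin and to signalling. In brain vessels, beta1 integrins anchor endothelial and mural cells to the basement membrane, while beta2 integrins are confined to leukocytes and microglia.

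No integrin or adaptor gene passed the adjusted threshold of 0.05 after PDGF-CC. Of the 34 genes, 30 were bright enough to be tested, and the smallest adjusted p among them was 0.769 by limma. Over the whole array the count past the threshold was 0 of 17734 probe sets as well (0%). At an unadjusted p under 0.05 there were 5 members, 2 with higher and 3 with lower values in the PDGF-CC arrays, which is 16.7% of those tested against 6.04% of all probe sets (2.63% higher and 3.41% lower). In 1 member, Itgb3, every PDGF-CC array lay above every PBS array, and in 0 members did every PDGF-CC array lie below. Over all probe sets these shares were 1.8% and 2.5%, or 4.3% together. Differences were positive in 15 members and negative in 15, with a median of 0.003 on the log2 scale, against -0.004 over all tested probe sets. The differences ran from -0.21 to +0.39, so none reached 1.5-fold. For 27 of the 30, the 95% interval of the difference also lay within 1.5-fold in either direction, and the exceptions were Itgam, Itgb2 and Itgb3.

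**Figure D1:**
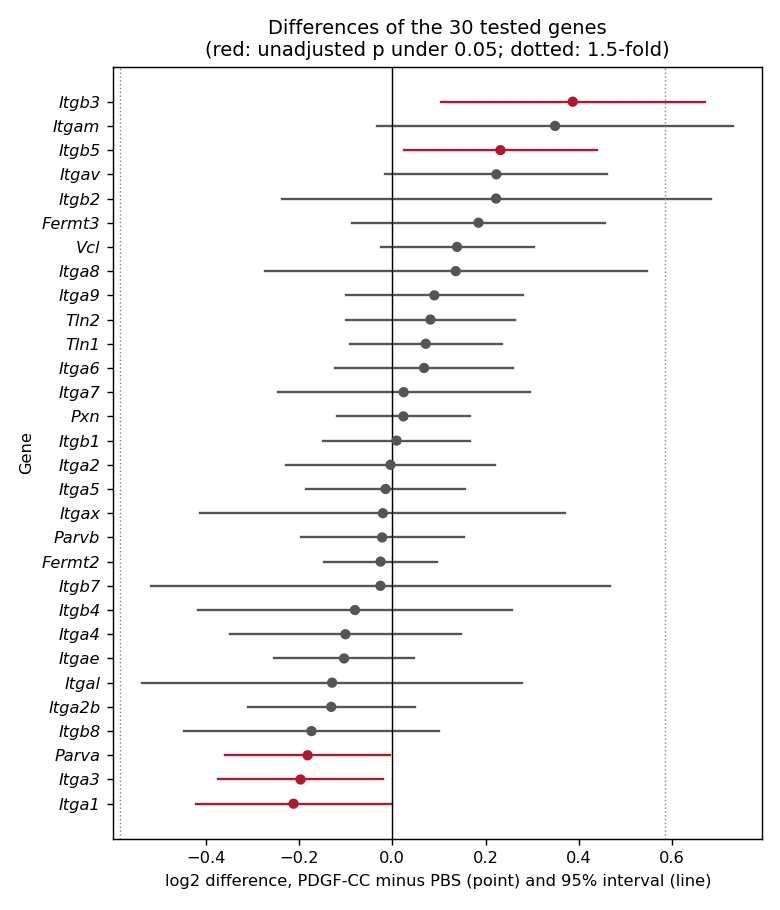
The log2 difference between PDGF-CC (4 arrays) and PBS (3 arrays) is plotted for the 30 tested genes, with its 95% interval from limma as a line and 1.5-fold marked by dotted lines. The 5 genes in red had an unadjusted p under 0.05, and the intervals of 27 genes stayed within the dotted lines.

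Itgb3 had the highest difference of the tested members, followed by the leukocyte subunit gene Itgam and then by Itgb5, Itgav and Itgb2. Itgb3, Itgb5 and Itgav encode subunits of the alpha-v family, receptors for vitronectin and fibronectin that can also activate latent TGF-beta. Itgb3 pairs with alpha-v on activated endothelium and macrophages and with alpha-IIb on platelets. Its log2 values were 6.19, 6.36, 6.08 and 6.01 in PDGF-CC arrays 1 to 4 and 5.93, 5.54 and 5.85 in PBS arrays 1 to 3. The groups did not overlap, and PBS array 2 was the lowest. The difference was +0.39 ± 0.12 (log2, SE, n = 4 and 3), or 1.31-fold. By limma this gave an unadjusted p of 0.0145 and an adjusted p of 0.769. It kept an unadjusted p under 0.05 in all 17 alternative tests, but was +0.54 within description numbers 1 to 4 and +0.19 within numbers 5 to 7 (numbers that the sample descriptions carry over both groups). Its adjusted p ranged from 0.508 to 0.846 over those tests.

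Itgb5, the alpha-v partner that binds vitronectin and is abundant in microglia, had values of 10.01, 9.91, 9.81 and 9.81 in the PDGF-CC arrays and 9.82, 9.56 and 9.56 in the PBS arrays. PBS array 1 lay between the PDGF-CC arrays, and the other PBS arrays lay below all of them. The difference was +0.23 ± 0.087 (log2, SE, n = 4 and 3). It had an unadjusted p of 0.0323 by limma, which became 0.105 when PBS array 2 was left out and 0.107 when PBS array 3 was. Itgav, the alpha-v subunit itself, had values of 8.42, 8.42, 8.54 and 8.29 in the PDGF-CC arrays and 8.32, 7.98 and 8.29 in the PBS arrays. The groups overlapped, and the lowest value was again that of PBS array 2. The difference was +0.22 ± 0.10 (log2, SE, n = 4 and 3), with an adjusted p of 0.769 by limma, and it was +0.12 without PBS array 2. The dimmer Itgav probe set, with a mean of 3.99, lay below the filter and differed by +0.07.

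Of the other beta subunits grouped here as alpha-v partners, Itgb8 did not share this direction with all arrays, and Itgb6 was not tested. Itgb8, which with alpha-v activates TGF-beta at the interface of astrocytes and vessels, had values from 6.77 to 7.04 in PDGF-CC and from 6.81 to 7.19 in PBS. Its difference was -0.17 ± 0.12 (log2, SE, n = 4 and 3; adjusted p = 0.771 by limma). That difference was -0.40 within description numbers 1 to 4 and +0.18 within numbers 5 to 7, and it was -0.30 when PBS array 3 was left out. The epithelial subunit gene Itgb6 lay below the filter, with a mean of 3.14.

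Leukocyte integrins were led by Itgam, the alpha-M subunit (CD11b) of complement receptor 3 on microglia and myeloid cells. Its values were 8.97, 8.82, 8.68 and 8.61 in the PDGF-CC arrays and 8.65, 8.04 and 8.56 in the PBS arrays. All PDGF-CC arrays except array 4 were above all PBS arrays, and PBS array 2 stood far below the rest. The difference was +0.35 ± 0.16 (log2, SE, n = 4 and 3; adjusted p = 0.769 by limma). It was +0.16 without PBS array 2, +0.54 within description numbers 1 to 4 and +0.08 within numbers 5 to 7. Itgb2, the beta2 subunit (CD18) that pairs with alpha-M, had values of 8.09, 7.81, 7.64 and 7.49 in the PDGF-CC arrays and 7.88, 7.18 and 7.55 in the PBS arrays. The groups overlapped over most of their range. The difference of +0.22 ± 0.19 (log2, SE, n = 4 and 3; adjusted p = 0.795 by limma) was +0.04 when PBS array 2 was left out and +0.39 when PBS array 1 was.

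The other leukocyte subunits lay close to the filter or differed little. Itgal, the alpha-L subunit of LFA-1 on lymphocytes, differed by -0.13 ± 0.17 and Itgae, the alpha-E subunit of T cells within epithelia, by -0.10 ± 0.064 (log2, SE). Itgax, which encodes CD11c, differed by -0.02 ± 0.17 and Itgb7, the beta7 subunit of gut-homing lymphocytes, by -0.03 ± 0.21. The difference of Itgax went from -0.20 to +0.33 between description numbers 1 to 4 and 5 to 7, and that of Itgb7 from -0.18 when PDGF-CC array 1 was left out to +0.13 when PDGF-CC array 4 was. Itgad, the alpha-D subunit, had a mean of 3.42 and was not tested.

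Microglial markers mostly differed in the same direction as Itgb3, Itgav, Itgam and Itgb2. Their mean, like the values of those genes, was lowest in PBS array 2. The mean over 13 microglial markers lay between 9.45 and 9.56 in the PDGF-CC arrays, and was 9.41, 8.92 and 9.41 in PBS arrays 1, 2 and 3. None of the 13 was near the filter, and 12 of them differed in the positive direction, as did 48.4% of all tested probe sets. Among the 12 was the fractalkine receptor gene Cx3cr1 (+0.53 ± 0.18, log2, SE). Platelet markers, listed because Itgb3 and Itga2b encode the fibrinogen receptor of platelets, had 5 of 9 members above the filter. Their mean ranged from 5.83 to 6.46 in PDGF-CC and from 5.98 to 6.37 in PBS, while Gp6, Clec1b, Nfe2 and Tubb1 lay below the filter. Differences were positive in 2 of the 5 and negative in 3. By limma, 1 of the 5 was higher at an unadjusted p under 0.05, against 2.63% of all tested probe sets. That gene, Gp9, differed by +0.37 ± 0.14 (log2, SE), and its lowest value was 5.91 in PBS array 2. Itga2b itself differed by -0.13 ± 0.076 (log2, SE). Markers of neutrophils and monocytes had 11 of 14 members above the filter, with array means from 5.81 to 6.95 in PDGF-CC and from 6.21 to 7.32 in PBS. Of those 11, 9 had negative differences, and the median over the 11 was -0.33. By limma, 1 of the 11 was lower at an unadjusted p under 0.05, against 3.41% of all tested probe sets. Description numbers 1 to 4 had means of 6.95 and 6.78 in PDGF-CC and 7.32 and 6.93 in PBS. In numbers 5 to 7 the means were lower in both groups, at 6.46 and 5.81 in PDGF-CC and 6.21 in PBS. The part of these cell types in the differences of Itgb3, Itgb5, Itgav, Itgam and Itgb2 was not tested.

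**Figure D2:**
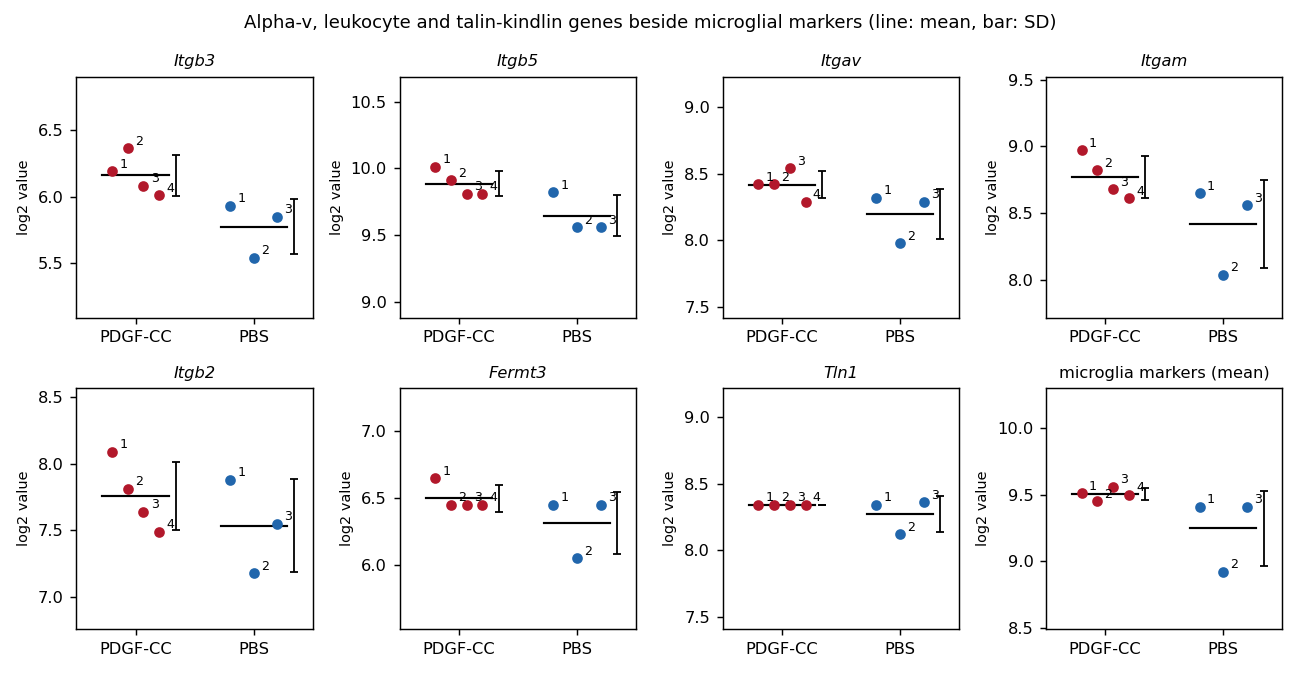
Log2 values of Itgb3, Itgb5, Itgav, Itgam, Itgb2, Fermt3 and Tln1 and the mean of 13 microglial markers are plotted for each array, with array numbers beside the points, a line at the group mean and a bar for the SD; every panel spans the same number of log2 units. PBS array 2 is the lowest point of all panels but that of Itgb5, where it ties with PBS array 3 at 9.56 after rounding.

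Lower values after PDGF-CC were found for Itga1, Itga3 and Parva, all with groups that touched or overlapped. Itga1, the collagen and laminin receptor subunit of mural cells and microvascular endothelium, had values of 9.96, 9.97, 10.20 and 10.20 in the PDGF-CC arrays and 10.20, 10.28 and 10.40 in the PBS arrays. PDGF-CC arrays 3 and 4 and PBS array 1 held exactly the same deposited value, and the other PDGF-CC arrays lay below it. The difference was -0.21 ± 0.089 (log2, SE, n = 4 and 3; adjusted p = 0.769 by limma). By limma the unadjusted p was 0.0486, and it was 0.00278 when the arrays with description numbers up to 4 and those above 4 were fitted as separate blocks (adjusted p = 0.360, in a range from 0.360 to 0.846 over the alternatives). Without PBS array 3 the difference was -0.16, with an unadjusted p of 0.157.

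Itga3, a laminin receptor subunit, had values of 6.89, 6.78, 6.76 and 6.78 in the PDGF-CC arrays and 6.96, 6.89 and 7.15 in the PBS arrays. The highest PDGF-CC value and the lowest PBS value were equal. The difference was -0.20 ± 0.075 (log2, SE, n = 4 and 3; adjusted p = 0.769 by limma), and it was -0.12 without PBS array 3. Within description numbers 1 to 4 it was -0.09 and within numbers 5 to 7 it was -0.38. Parva, which encodes alpha-parvin, the actin-binding partner of integrin-linked kinase, had values of 8.26, 8.21, 8.37 and 8.42 in the PDGF-CC arrays and 8.40, 8.59 and 8.50 in the PBS arrays. PDGF-CC array 4 lay above PBS array 1. The difference was -0.18 ± 0.075 (log2, SE, n = 4 and 3; adjusted p = 0.769 by limma), while its relative Parvb differed by -0.02 ± 0.074.

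Markers of pericytes, endothelium, perivascular fibroblasts and the choroid plexus also had mostly negative differences, while 48.4% of all tested probe sets had positive ones. The mean over 10 pericyte markers was 8.62, 8.71, 8.93 and 9.03 in PDGF-CC arrays 1 to 4 and 8.99, 8.85 and 9.18 in PBS arrays 1 to 3, and 9 of the 10 had negative differences. Like Itga1, it was lowest in PDGF-CC arrays 1 and 2 and highest in PBS array 3. The mean over 10 smooth muscle markers ranged from 8.45 to 8.65 in PDGF-CC and from 8.31 to 8.61 in PBS. Unlike the pericyte markers, 7 of these 10 had positive differences, and the median over the 10 was +0.10. The mean over 8 choroid plexus markers ranged from 6.32 to 7.16 in PDGF-CC and from 7.23 to 7.58 in PBS. By limma, 7 of the 8 were lower at an unadjusted p under 0.05, against 3.41% of all tested probe sets. Of the 15 endothelial markers 13 had negative differences, with a median of -0.08, and their mean ranged from 10.59 to 10.74 in PDGF-CC and from 10.62 to 10.82 in PBS. Of 10 markers of perivascular fibroblasts 8 had negative differences, with a median of -0.09, and their mean ranged from 6.86 to 7.12 in PDGF-CC and from 7.02 to 7.19 in PBS. The part of these cell types in the values of Itga1, Itga3 and Parva was not tested.

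**Figure D3:**
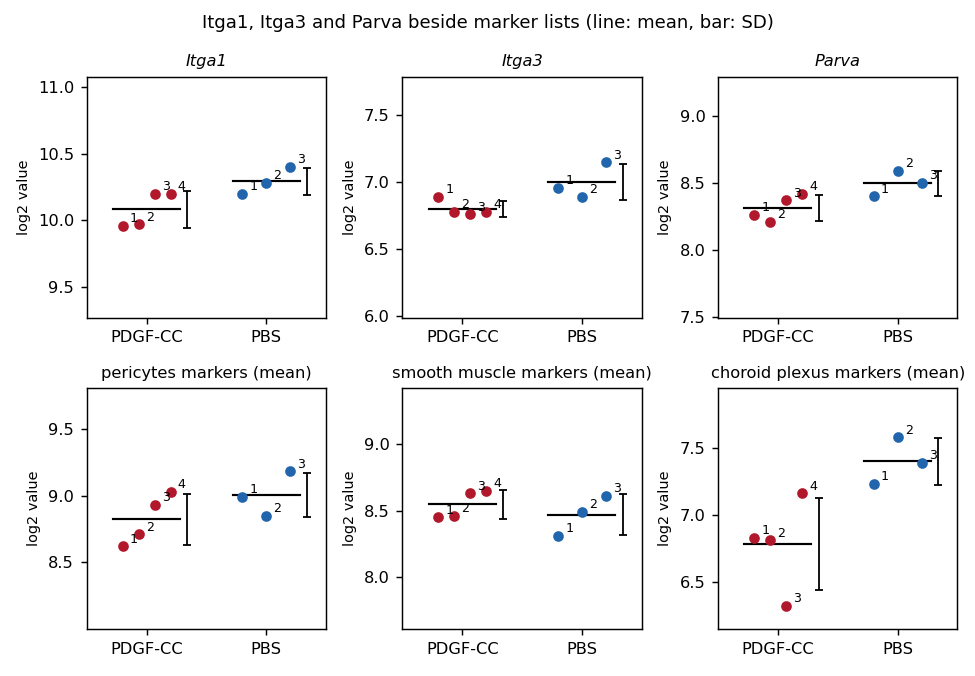
Log2 values of Itga1, Itga3 and Parva and the means of the pericyte, smooth muscle and choroid plexus markers are plotted for each array, with the group mean as a line and the SD as a bar. The 3 genes touch or overlap between the groups, whereas the choroid plexus means (6.32 to 7.16 against 7.23 to 7.58) do not.

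The promoters of Itgb5, Itgav, Itgam, Itga1 and Itga3 are given so that genes with positive and negative differences can be read side by side. They come from RefSeq (GRCm38.p6), run from 250 bases before to 50 after the start of the gene, and are written 5′ to 3′ on the strand of the gene. Capitals mark matches, on either strand, to the GC box bound by Sp1 (GGGCGG) or to the purine core bound by PU.1 and related ETS factors (GAGGAA).
Itgb5, chr16:33829415-33829714, plus strand: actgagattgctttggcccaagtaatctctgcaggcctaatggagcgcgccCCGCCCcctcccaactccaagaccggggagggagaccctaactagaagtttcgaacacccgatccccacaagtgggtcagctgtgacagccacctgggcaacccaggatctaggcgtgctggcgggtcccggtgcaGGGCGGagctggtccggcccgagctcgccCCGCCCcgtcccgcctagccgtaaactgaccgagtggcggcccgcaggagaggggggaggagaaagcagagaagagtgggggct
Itgav, chr2:83724147-83724446, plus strand: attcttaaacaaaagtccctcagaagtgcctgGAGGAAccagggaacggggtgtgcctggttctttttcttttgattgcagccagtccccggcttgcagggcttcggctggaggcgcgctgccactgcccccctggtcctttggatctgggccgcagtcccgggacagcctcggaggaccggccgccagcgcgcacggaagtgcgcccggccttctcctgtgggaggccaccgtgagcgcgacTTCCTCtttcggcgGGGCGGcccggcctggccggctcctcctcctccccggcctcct
Itgam, chr7:128062390-128062689, plus strand: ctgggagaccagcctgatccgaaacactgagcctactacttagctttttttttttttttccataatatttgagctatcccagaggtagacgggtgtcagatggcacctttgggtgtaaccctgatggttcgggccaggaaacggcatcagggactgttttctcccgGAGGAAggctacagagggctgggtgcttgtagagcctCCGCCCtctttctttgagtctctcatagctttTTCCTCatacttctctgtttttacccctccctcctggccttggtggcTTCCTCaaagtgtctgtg
Itga1, chr13:115101915-115102214, minus strand: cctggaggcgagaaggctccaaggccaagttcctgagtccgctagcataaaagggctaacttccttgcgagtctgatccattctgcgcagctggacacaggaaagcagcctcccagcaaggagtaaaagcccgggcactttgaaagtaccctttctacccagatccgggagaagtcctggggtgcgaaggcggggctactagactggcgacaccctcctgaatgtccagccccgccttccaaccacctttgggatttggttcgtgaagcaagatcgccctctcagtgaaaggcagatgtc
Itga3, chr11:95076665-95076964, minus strand: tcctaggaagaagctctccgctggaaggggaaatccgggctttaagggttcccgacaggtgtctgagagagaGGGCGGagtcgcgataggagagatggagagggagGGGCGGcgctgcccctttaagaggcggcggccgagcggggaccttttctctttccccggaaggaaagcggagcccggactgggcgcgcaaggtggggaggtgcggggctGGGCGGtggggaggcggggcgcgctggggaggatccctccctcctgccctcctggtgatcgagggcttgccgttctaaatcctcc
The Itgb5 promoter held 3 GC boxes and 0 purine cores, and that of Itgav 1 GC box and 2 purine cores. The promoter of Itgam, a gene of myeloid cells, held 1 GC box and 3 purine cores, and that of Itga1 held neither. The Itga3 promoter printed held 3 GC boxes and 0 purine cores. A second start of Itga3 in the table, at chr11:95069149-95069448, had 1 GC box, 1 purine core and 1 AP-1 match and held 5 CpG dinucleotides. Matches to AP-1 (TGANTCA), TEAD (GGAATG) and the TATA box (TATAAA) were also searched on both strands, and the 5 promoters printed held 0 of each. CpG dinucleotides numbered 20 in Itgb5, 24 in Itgav, 6 in Itgam, 12 in Itga1 and 24 in the printed one of Itga3, against a median of 7 over all promoters. Of 32851 promoters of this length, 35.7% held a GC box, 28.3% the purine core, 7.81% the AP-1, 14.7% the TEAD and 13.6% the TATA sequence. Among 23 members with a promoter of this length (25 promoters), the genes with a match in at least 1 promoter numbered 12, 10, 3, 2 and 0. These numbers count genes, whereas the percentages count promoters. A match is a description of the sequence and not a measured site.

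Itgb1, Itga6, Itgb4, Itga7 and Itga5 had differences between -0.08 and +0.07 on the log2 scale. Itgb1, the shared partner of most matrix-binding alpha subunits, had values of 10.62, 10.62, 10.78 and 10.69 in the PDGF-CC arrays and 10.71, 10.57 and 10.73 in the PBS arrays. The groups overlapped. The difference was +0.01 ± 0.067 (log2, SE, n = 4 and 3), with a 95% interval from -0.15 to +0.17. Itga6, the laminin receptor subunit of brain endothelium, differed by +0.07 ± 0.081, with an interval from -0.12 to +0.26. Its hemidesmosomal partner Itgb4 differed by -0.08 ± 0.14, and Itga7, the laminin receptor subunit of muscle cells, by +0.02 ± 0.11. Itga5, the fibronectin receptor subunit, differed by -0.01 ± 0.072, with an interval from -0.18 to +0.16.

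Subunits with a narrower distribution overlapped between the groups as well. Itga8, a receptor subunit of smooth muscle and mesangial cells for nephronectin and fibronectin, ran from 6.06 in PDGF-CC array 1 to 6.82 in PDGF-CC array 3, so that the PBS values of 6.28 to 6.37 all fell within the PDGF-CC range. Its difference of +0.14 ± 0.17 (log2, SE) was -0.11 within description numbers 1 to 4 and +0.36 within numbers 5 to 7. Itga4, the partner of beta1 that binds VCAM-1, differed by -0.10 ± 0.11 and Itga9, which binds tenascin-C and osteopontin, by +0.09 ± 0.080. The collagen receptor subunit Itga2 differed by -0.004 ± 0.095. Itga11, a collagen receptor subunit of fibroblasts, had a mean just under the filter at 4.14 and was not tested, while Itgae, at 4.25, was the dimmest member that was.

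The talins and the kindlin of blood cells varied little outside PBS array 2. Tln1, which encodes the main talin, had the same value, 8.34, in all 4 PDGF-CC arrays and in PBS array 1, with 8.12 in PBS array 2 and 8.36 in PBS array 3. Tln2 followed the same course, with 6.72 in the PDGF-CC arrays and PBS array 1, 6.45 in PBS array 2 and 6.74 in PBS array 3. Their differences of +0.07 ± 0.069 and +0.08 ± 0.077 (log2, SE) became -0.01 and -0.01 without PBS array 2. Fermt3, that kindlin, had 6.65 in PDGF-CC array 1, 6.45 in the other PDGF-CC arrays and in PBS arrays 1 and 3, and 6.05 in PBS array 2. Its difference of +0.18 ± 0.12 was +0.05 without PBS array 2. Fermt2, the widely expressed kindlin, differed by -0.03 ± 0.051 with a 95% interval from -0.15 to +0.10, and Fermt1, the epithelial kindlin, lay below the filter at a mean of 3.36.

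Equal values such as those of Tln1 were common in the deposited table. In 13 of 30 tested members (43.3%), at least 3 arrays held exactly the same value, against 37.4% of all tested probe sets. In Tln2 the SD of the PDGF-CC arrays was 0.001. Itgb3, Itgav, Itgam, Itgb2, Itgb1 and Parva held a different value in every array.

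Plaque proteins further from the receptor showed small differences. Vcl, which encodes the actin linker vinculin, had values of 9.88, 9.89, 10.06 and 9.88 in the PDGF-CC arrays and 9.72, 9.77 and 9.88 in the PBS arrays. The groups met at 9.88, where PDGF-CC array 1 and PBS array 3 were equal. The difference was +0.14 ± 0.070 (log2, SE, n = 4 and 3; adjusted p = 0.769 by limma), and it was positive in all 19 alternatives, from +0.09 to +0.18. Pxn, which encodes the scaffold paxillin, differed by +0.02 ± 0.060, with an interval from -0.12 to +0.17.

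**Figure D4:**
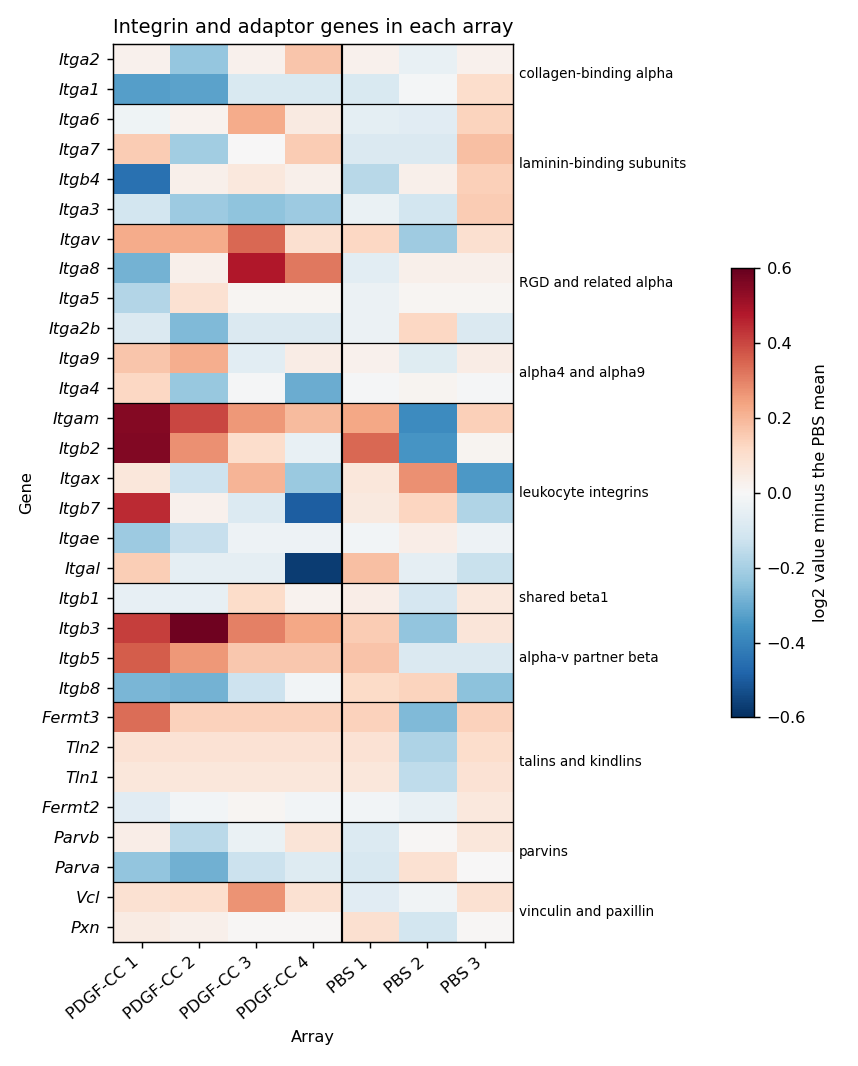
Each cell shows a tested gene's log2 value in an array minus that gene's mean over the PBS arrays, with genes grouped by role (black lines) and the groups parted by a vertical line. PBS array 2 is blue for Itgam, Itgb2, Itgb3, Itgav, Fermt3, Tln1, Tln2 and Pxn. All PDGF-CC arrays lie above the PBS mean for Itgb3, Itgb5, Itgav, Itgam, Vcl, Pxn, Tln1, Tln2 and Fermt3. They all lie below it for Itga1, Itga3, Itga2b, Itgae, Itgb8 and Parva. The other rows hold both colours among the PDGF-CC arrays.

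Across the 30 tested members a single array, PBS array 2, most often held the lowest value. It was lowest in 11 of 30 members (36.7%), against 18.1% of all tested probe sets. PBS array 3 was highest in 7 of 30 (23.3%), against 18.0% of all. Leaving out single arrays also changed which members had an unadjusted p under 0.05. There were 6 without PBS array 1 (Itgb5, Itgb3, Parva, Itgam, Itga1 and Itgav), 5 without PDGF-CC array 4 (Itgb3, Parva, Itga1, Itgb5 and Itgav), 2 without PBS array 2 (Itga3 and Itgb3), 1 without PDGF-CC array 2 (Itgb3), 2 without PDGF-CC array 1 (Itga3 and Itgb3), 3 without PDGF-CC array 3 (Itgb3, Itga1 and Itgb5) and 3 without PBS array 3 (Itgb8, Itgb3 and Vcl). Itgb3 was the only member at that level in all 7 of these fits. Over all tested probe sets, the share at that level was computed only for the fit of all 7 arrays (6.04%). The counts with an array left out therefore have no such share beside them. In 11 of the 30 members the sign of the difference held in every alternative tried. They were Itga1, Itga3, Itga4, Itga6, Itgam, Itgav, Itgb2, Itgb3, Itgb5, Parva and Vcl. The alternatives reuse the same arrays, and another filter or prior leaves the difference itself unchanged. How often the sign held over all tested probe sets was not computed.

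**Figure D5:**
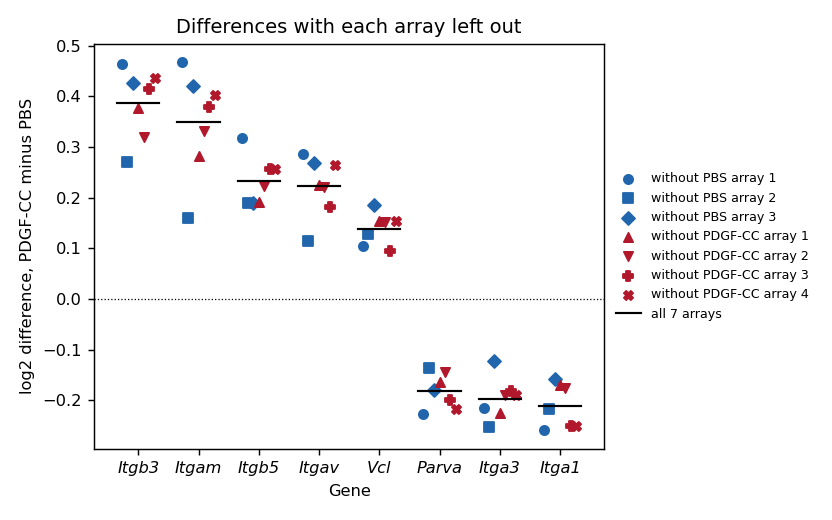
The log2 difference between PDGF-CC and PBS is plotted for 8 genes with all 7 arrays (black line) and with each array left out in turn (symbols). Itgam was at +0.16 and Itgav at +0.12 without PBS array 2, while all 8 genes stayed on their side of 0.

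Other genes of the pathway gave no calls either. Of 100 genes in 5 lists (activation regulators, further plaque proteins, FAK and Src signalling, ligands and traffic), 96 were tested and 0 passed the adjusted threshold by limma. At an unadjusted p under 0.05 there were 5 with higher and 3 with lower values in PDGF-CC, or 8.33% of those tested, close to the 6.04% of all probe sets. The median difference was +0.04, against -0.004 over all probe sets. Adjusted p was 0.769 for each gene named from these lists at an unadjusted p under 0.05.

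Among 16 regulators of integrin activation, 2 were higher and 1 lower at an unadjusted p under 0.05 by limma. The shares over all probe sets were 2.63% and 3.41%. Apbb1ip, which encodes RIAM, the Rap1 effector that recruits talin in blood cells, differed by +0.41 ± 0.17 (log2, SE), with 8.70 in PBS array 2 against 9.20 to 9.71 in the other arrays. Rassf5, which encodes the Rap1 effector RAPL, differed by +0.27 ± 0.098. Kank3, an endothelial member of the talin-binding KANK family, differed by -0.16 ± 0.064. The small GTPase gene Rap1b, upstream of talin, differed by +0.05 ± 0.058.

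Signalling genes behind focal adhesion kinase included 2 of 19 with higher values at an unadjusted p under 0.05 by limma and 0 with lower. Over all probe sets these shares were 2.63% and 3.41%. Bcar1, which encodes the docking protein p130Cas, had values of 7.19 to 7.23 in all PDGF-CC arrays and 6.96, 6.92 and 7.19 in the PBS arrays, a difference of +0.19 ± 0.073. Arhgap26, which encodes the FAK-binding protein GRAF, was the only gene of this list with groups apart, at 8.98 to 9.18 against 8.82 to 8.93, and differed by +0.17 ± 0.068. Groups lay apart in this direction in 1.8% of all probe sets. The kinase genes Src and Fyn differed by +0.10 ± 0.063 and +0.04 ± 0.047, and Asap1, which encodes a FAK-binding Arf regulator, by +0.09 ± 0.051.

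Of 26 integrin ligand genes tested, 1 was higher and 2 were lower at an unadjusted p under 0.05 by limma, against 2.63% and 3.41% of all probe sets. Npnt, which encodes nephronectin, the ligand of alpha8 beta1, lay at 6.98 to 7.24 in PDGF-CC and 6.68 to 6.93 in PBS, without overlap, and differed by +0.24 ± 0.091. Lamb1, a laminin beta chain gene of the basement membrane, lay at 5.76 to 6.16 in PDGF-CC and 6.24 to 6.53 in PBS and differed by -0.30 ± 0.12. Groups lay apart in 2 ligand genes with higher values (Npnt and Tgfb1) and in 1 with lower values (Lamb1). The shares over all probe sets were 1.8% and 2.5%. Tgfb1 differed by +0.22 ± 0.13, with 8.41 in PBS array 2. Ccn2, a matricellular ligand of several integrins, differed by -0.58 ± 0.21, with overlapping groups. The fibronectin gene Fn1 and the vitronectin gene Vtn, ligands of the alpha-v integrins, differed by -0.03 ± 0.069 and -0.08 ± 0.11. The fibrinogen genes Fga, Fgb and Fgg and the alpha-v ligand gene Edil3 lay below the filter.

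Further plaque and traffic genes held 0 members at an unadjusted p under 0.05 by limma, against 6.04% of all tested probe sets. In the plaque list 16 of 20 differences were positive, where 48.4% of all probe sets were. The leukocyte paxillin relative Lpxn (+0.34 ± 0.19), the actin regulator genes Evl (+0.17 ± 0.085) and Vasp (+0.11 ± 0.073) had the smallest p, and Lims1, which encodes the ILK partner PINCH1, differed by +0.03 ± 0.063. In the traffic list 10 of 15 differences were positive. Snx17, which encodes a sorting nexin that recycles beta1 integrin, differed by +0.15 ± 0.067, Snx31 by +0.08 ± 0.053 and Swap70 by +0.11 ± 0.081. Rab21, which encodes a GTPase that binds alpha subunits, differed by -0.03 ± 0.059, and Rab25 by -0.04 ± 0.11.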

How the data were processed

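RNA of 7 arrays was analysed, 4 PDGF-CC and 3 PBS, grouped by sample titles. The authors deposited log2 values per probe set; the submitters' processing notes list limma, RMA and Affymetrix Expression Console and give no version. RMA makes distributions equal between arrays, which removes any difference in total RNA. The genome build behind the values is not given in the sources used here. Arrays carry no read depth, and their number limits the precision.

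Of 33793 probe sets, 23521 carried 1 symbol of the platform annotation, 1814 several and 8458 none. Genes were named from a single symbol and represented by their brightest probe set. Tests covered the 17734 probe sets that had a symbol and whose mean exceeded the 30th percentile of such probe sets (4.14). They used limma 3.58.1 (lmFit, eBayes; R 4.3.3), 2-sided and without covariates, with Benjamini-Hochberg adjustment over all of them. SE and 95% intervals come from that fit. The fit was tested on simulated data. Promoters came from RefSeq (GRCm38.p6), and figures were drawn with matplotlib 3.10.9.

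Members, role groups, pathway lists and marker lists were chosen with earlier results of these data known. Each member is named, with values of every array where the unadjusted p was under 0.05, where groups did not overlap, and for Itgb1, Tln1, Itgam and Itgb2; Itgav, Tln2, Fermt3 and Vcl were added after their values were seen. From each pathway list the 3 genes with the smallest p and, of the first 2 as written, those with a probe set of their own are named. Tgfb1 was added because its groups did not overlap. Alternatives were another filter or none, other scalings, priors, weights, covariates and blocks, the mean of a gene's probe sets, and each array left out.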

Additional observations from a re-analysis of the deposited data

Results flagged for a closer look

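In 9 of 34 members, an array stood apart from the other PDGF-CC arrays by the ratio of its gap to the group's range, where chance flags about 1 in 20. Among tested members it was 6 of 30 (20%), against 3552 of all 17734 tested probe sets (20%), and groups with 3 equal values have a ratio of 1.0 by construction. The ratio was 1.0 for Fermt3 (PDGF-CC array 1, high), Itga2b (array 2, low) and Tln2 (array 1, high, over a range of only 0.0014), since the other PDGF-CC arrays held equal values. It was 0.958 for Vcl (array 3, high), 0.93 for Itgb4 (array 1, low), 0.833 for Itga3 (array 1, high) and, among members below the filter, 0.888 for Itga11 (array 3, high), 0.857 for Itgad (array 4, high) and 0.834 for Itgb6 (array 1, low). Without PDGF-CC array 1, Itgb4 went from -0.08 to +0.04, and without PDGF-CC array 3, Vcl went from +0.14 to +0.09.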

How the results depend on the processing

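The count of members past the adjusted threshold was 0 in every test. Over all genes it was 3 when the filter was set at the 50th percentile, 3 with arrays centred on their median, 3 with a trended and robust prior, 1 with quantile normalization repeated, and 0 to 1 with single arrays left out. Members at an unadjusted p under 0.05 by limma (5 with all arrays) numbered 3 with arrays centred on their median and 2 with array weights. They numbered from 1 to 6 with single arrays left out. With quantile normalization repeated they were Itga3, Itgam, Itgav, Itgb3, Itgb5 and Vcl. The share of all tested probe sets at that level was not computed for these alternatives. The median difference of members was +0.046 when the filter was set at the 50th percentile, which left 24 members. With the titles' replicate numbers as a block, 4 members had an unadjusted p under 0.05, 0 passed the adjusted threshold and the median difference was +0.02; PDGF-CC array 4 has no partner and does not bear on that fit. The deviations of same-numbered arrays from their group means correlated at 0.163, 0.107 and 0.084. Differently numbered arrays were not compared in this way, so these values cannot show whether the numbers pair the samples. The main fit did not use the numbers as pairs. Within description numbers 1 to 4 and 5 to 7, only differences were computed.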
